A study of Drosophila melanogaster with 6 samples.

Results

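The mitochondrial ribosomal protein genes of Drosophila melanogaster were taken as the genes whose symbol starts with mRpL, for the large subunit of the mitochondrial ribosome, or mRpS, for the small subunit. This rule found 73 of the 17494 genes listed, 47 of them mRpL and 26 mRpS. They were measured in macrophages (hemocytes) sorted by FACS for an mCherry label from embryos kept at 29°C. The labels give stage 11, and the paper's methods reach into the early part of the next stage. Per those methods, harvested embryos were also held in the cold to slow their development while further collections were made. In 3 DfosDN samples the macrophage driver srpHemo-Gal4 and the reporter srpHemo-3xmCherry were combined with UAS-DfosDN. This transgene makes a bZIP fragment that interferes with the transcription factor Dfos (the gene kay). The 3 WT samples carried driver and reporter alone. Both genotypes therefore share the driver and the label, the transgene acts wherever the serpent hemocyte promoter is active, and each sample is a sort from many pooled embryos. The comparison asks which macrophage mRNAs differ when Dfos function is blocked.

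Mitochondria hold their own ribosomes, which translate the few mRNAs encoded by mitochondrial DNA, most of them for core subunits of the respiratory chain and the ATP synthase. The ribosomal RNAs of these ribosomes come from mitochondrial DNA, but all of their proteins are encoded in the nucleus, made in the cytoplasm and imported. The small subunit reads the mRNA, the large subunit joins the amino acids, and many of the proteins have a bacterial counterpart while others are found in mitochondrial ribosomes alone.

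Values are on the scale of transcripts per 1000000 (TPM), a read count divided by gene length and scaled to the sample. Deposited values of 1 or more had lost their decimal point, so its place was restored from the requirement of whole reads and from the gene's other samples before any comparison. Per sample, between 8488759 and 9096920 restored reads entered the fit in DfosDN and between 8973744 and 10087380 in WT. The gene kay itself had 15.7, 18.02 and 14.6 TPM in DfosDN and 5.78, 12.7 and 12.1 TPM in WT (log2 fold change 0.67, adjusted p = 0.29, limma with Benjamini-Hochberg adjustment over all genes tested). Reads assigned to kay can come from the endogenous gene and from the transgene. The 13 macrophage markers summed to between 8551 and 13108 TPM in DfosDN samples, below the 15698 to 21595 TPM of the WT samples, and most of this sum was NimC4, an engulfment receptor. The other 12 summed to between 1323 and 1773 TPM in DfosDN and between 2018 and 3448 TPM in WT. Every DfosDN sample was below every WT sample for 5 of the 13 (NimC4, SPARC, Col4a1, vkg and Pxn) and above for 1 (ush, with 43.4, 48.03 and 41.4 TPM in DfosDN and 24.9, 31.1 and 34.7 TPM in WT). None of the 12 that were tested passed the test. The 14 markers of other embryonic cells summed to between 222 and 344 TPM in DfosDN, against 297 to 787 TPM in WT, mostly PPO1, a marker of crystal cells. Without PPO1 these sums were 62.8, 78.4 and 47.7 TPM in DfosDN and 62.9, 56.6 and 45.4 TPM in WT, which overlap. Every DfosDN sample was above every WT sample for fkh (5.83, 6.48 and 3.69 TPM against 2.37, 2.17 and 1.09 TPM in WT) and twi (3.53, 1.87 and 2.30 TPM against 1.49, 1.26 and 0.65 TPM in WT), and below for Mef2, and none of the 12 tested in this list passed the test. The germ cell markers nos and vas were near or at 0 in every sample. The part that these marker levels have in the differences described here was not tested. In bulk samples such as these, fewer cells of a type and less RNA per cell cannot be told apart. Nothing in the labels says that the replicates came from separate parents, so p-values measure the spread between these samples.

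Of the 73 genes, 72 were detected in all 6 samples with at least 21 reads each and were tested. The remaining gene, mRpL53, a protein of the large subunit, was listed at 0 in every sample. In the annotation used for lengths (Ensembl, assembly BDGP6.54) all of its exonic bases lie inside exons of CG33155 on the same strand of chromosome 2R, a gene with 1, 4 and 0 reads in DfosDN and 0, 6 and 0 reads in WT. No level is therefore given for mRpL53. The other genes were spread over the chromosome arms, with 21 on 3R, 17 on 3L, 12 on 2L, 11 on 2R besides mRpL53 and 11 on X.

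Levels spanned from a mean of 5.83 TPM to a mean of 368 TPM over the 6 samples, with a median of 42.5 TPM. This was above the median of all 7660 genes tested (10.4 TPM) for 70 of the 72. The genes were short, with exon lengths from 327 to 2078 bases, and 3′ end libraries, as the methods describe them, yield about as many reads from a short as from a long mRNA, so a level per length is raised for short genes. The 5 highest were mRpL33, mRpL30, mRpS33, mRpL55 and mRpL34. mRpL33, a small protein of bacterial type, had 399, 285 and 498 TPM in DfosDN and 355, 322 and 351 TPM in WT. The WT values lay inside the range of the DfosDN values, and the fitted difference was 0.17 on the log2 scale (95% interval -0.26 to 0.59). mRpL30 was the steadiest of these, with 222, 220 and 229 TPM in DfosDN and 205, 211 and 198 TPM in WT. All 3 DfosDN samples lay above the WT samples, but by a log2 difference of only 0.13 with an interval of -0.14 to 0.39. mRpL34 overlapped widely, with 182, 151 and 196 TPM in DfosDN against 166, 134 and 215 TPM in WT.

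At the low end were mRpS5, mRpL10, mRpS35, mRpL37 and mRpS30. mRpL10 is the base of the stalk that recruits translation factors, and it had 12.2, 6.58 and 4.64 TPM in DfosDN and 10.4, 7.66 and 8.97 TPM in WT. mRpS5, whose bacterial counterpart lines the channel where mRNA enters, had 6.71, 8.39 and 1.63 TPM in DfosDN and 6.11, 6.73 and 5.41 TPM in WT. Its low value in DfosDN replicate 3 rests on 21 reads and was the least certain restoration of the whole family, with a posterior probability of 0.961, or 0.879 under a model that did not use the groups. Neither gene passed the test (adjusted p = 0.74 for mRpL10 and 0.79 for mRpS5, limma with Benjamini-Hochberg adjustment over all genes tested). By their means over the 6 samples, mRpL10 and mRpS5 were the lowest of their subunits. In the plot of levels by sample, single values of both overlap with those of other genes.

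**Figure D1:**
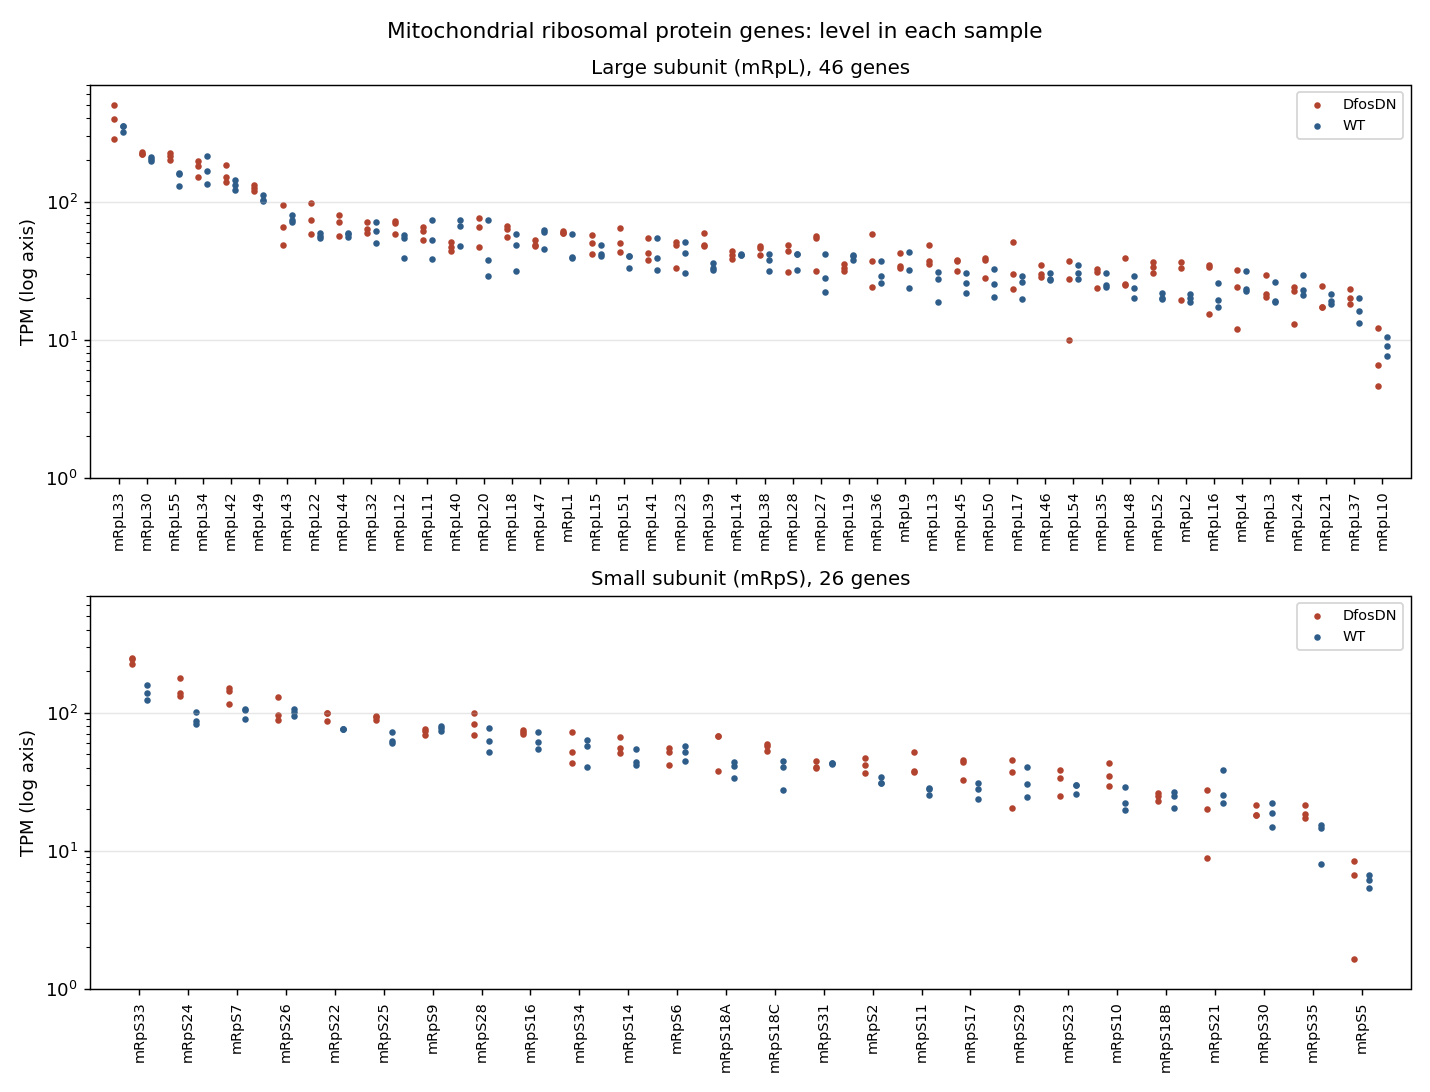
TPM on a log axis for each of the 72 mitochondrial ribosomal protein genes tested. The mRpL genes (large subunit by symbol) are above and the mRpS genes (small subunit by symbol) below. Each point is 1 sample, DfosDN left (red) and WT right (blue), and genes are ordered by their mean over the 6 samples, from mRpL33 at 368 TPM to mRpS5 at 5.83 TPM.

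The spread between replicates was of similar size in both groups. The coefficient of variation (SD as a percent of the mean, n = 3 per group) had a median of 16.0% over the 72 genes in DfosDN and 14.1% in WT. It ran from 2.03% for mRpL30 to 63.1% for mRpS5 in DfosDN, and from 0.602% for mRpL14 to 49.9% for mRpL20 in WT. mRpL20, a protein of the bacterial type, had 65.0, 47.1 and 75.9 TPM in DfosDN against 73.2, 29.0 and 38.0 TPM in WT, so that WT replicate 1 sat among the DfosDN values. Several of the most variable genes were low in DfosDN replicate 3 alone. mRpL54 had 36.9, 27.7 and 9.98 TPM in DfosDN and 30.5, 27.6 and 34.6 TPM in WT. mRpS21 had 27.6, 20.02 and 8.82 TPM in DfosDN and 22.2, 25.4 and 38.6 TPM in WT, and mRpL4 had 31.8, 24.2 and 11.9 TPM against 31.6, 22.5 and 23.2 TPM. These genes were chosen after their values were seen, and none passed the test, with adjusted p of 0.60, 0.40 and 0.74 by limma.

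As a group the mitochondrial ribosomal protein genes had small differences, more of them above 0 than below. The median log2 fold change, DfosDN minus WT on log2(TPM + 1), was 0.25 over the 72 genes, against -0.01 over all 7660 genes tested. It was above 0 for 57 of the 72 genes, 79.2%, where 49.2% of all genes tested were. The quartiles of the members were 0.05 and 0.44 and the extremes were -0.68 for mRpS21 and 0.77 for mRpS33. Among the 2281 other genes tested whose exon length and mean TPM fell within the range of the members, the median was -0.01 and 48.5% were above 0. Genes of 1 family in the same 6 samples are not independent of each other, so these counts describe the samples and were not tested.

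Among the 72 genes only mRpS33 passed the test. It encodes a protein of the small subunit that is found in mitochondrial ribosomes alone (chromosome 3R, 16436045 to 16436597, minus strand, assembly BDGP6.54) and had 244, 226 and 247 TPM in DfosDN and 124, 138 and 160 TPM in WT. The lowest DfosDN sample was thus well above the highest WT sample, and the underlying reads were 924, 746 and 928 in DfosDN against 498, 538 and 552 in WT. The log2 fold change was 0.77 ± 0.14 (SE) with a 95% interval of 0.46 to 1.08, a ratio of means of 1.70, and an adjusted p of 0.0217 by limma. The background for such calls was 1.02% of all genes tested higher in DfosDN and 1.45% lower, so 1 call higher and 0 lower among 72 genes is close to the share of all genes, and 15 of the 72 had an unadjusted p under 0.05, all of them higher. The call was lost without any 1 of 5 libraries, while the log2 fold change stayed between 0.68 and 0.88. Its adjusted p was 0.0754, 0.0720 and 0.0706 without DfosDN replicate 1, 2 and 3, and 0.0607 and 0.0799 without WT replicate 1 and 2, and 0.0481 without WT replicate 3.

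The 15 genes with an unadjusted p under 0.05 were 20.8% of the members, where 7.96% of all genes tested were higher at this threshold and 9.1% were lower. No member was lower at this threshold. In 21 of the 72 genes every DfosDN sample lay above every WT sample, against 10.9% of all genes tested. The opposite held for 1 member, mRpL19, against 11.9% of all genes. mRpL19 is named here after its values were seen, and had 33.3, 31.4 and 35.4 TPM in DfosDN and 41.2, 40.6 and 37.7 TPM in WT (log2 fold change -0.25, adjusted p = 0.48 by limma).

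**Figure D2:**
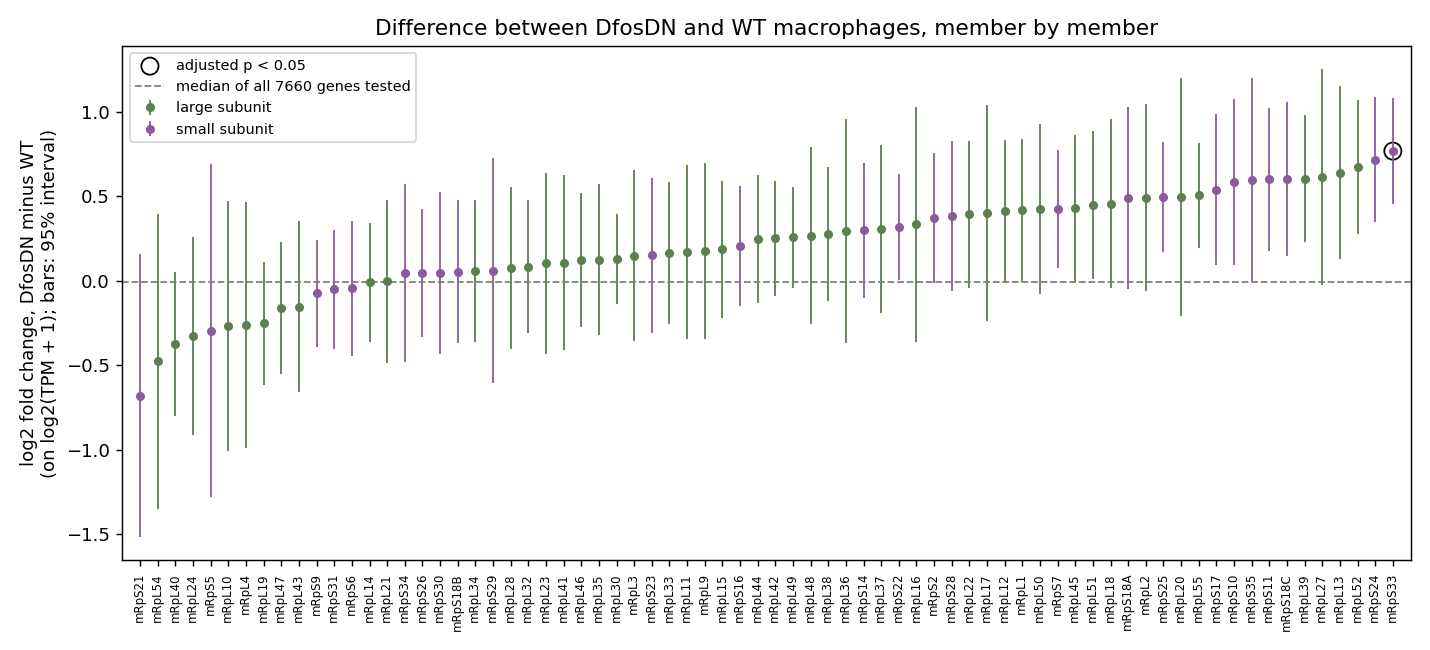
Log2 fold change, DfosDN minus WT on log2(TPM + 1), of the 72 genes tested, in ascending order, with 95% intervals as bars. Green marks the large and purple the small subunit, the ring marks the gene with an adjusted p under 0.05 (mRpS33), and the dashed line is the median of all 7660 genes tested. The points run from -0.68 (mRpS21) to 0.77 (mRpS33), and 57 of them lie above 0.

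After mRpS33, the small subunit gene closest to the threshold was mRpS24, the counterpart of bacterial S3 at the entrance of the mRNA channel. It had 138, 180 and 131 TPM in DfosDN and 82.2, 101 and 87.2 TPM in WT, with no overlap (log2 fold change 0.72 ± 0.16, SE, adjusted p = 0.0556 by limma). The last 300 exonic bases of mRpS24, from which a 3′ end library draws its reads, are all covered on the opposite strand by exons of CG6182 (TBC1d7). Whether counting used the strand is not given in the sources used here, and without strand the reads of both genes cannot be told apart. CG6182 itself had 275, 203 and 440 reads in DfosDN and 388, 322 and 194 reads in WT, with overlapping groups. mRpS25, found in mitochondrial ribosomes alone, had 94.7, 93.2 and 88.2 TPM in DfosDN and 60.3, 62.7 and 72.3 TPM in WT (adjusted p = 0.11). mRpS11, a protein of the platform of the small subunit, had 51.8, 37.5 and 38.1 TPM in DfosDN and 25.5, 28.4 and 28.1 TPM in WT (adjusted p = 0.13). Both had DfosDN values wholly above WT values, without passing the test.

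mRpS18C is of the bacterial S18 type, which sits on the same platform. It had 57.7, 53.2 and 59.0 TPM in DfosDN and 45.0, 27.6 and 40.4 TPM in WT (adjusted p = 0.16). Its paralogs mRpS18A and mRpS18B had log2 fold changes of 0.49 (95% interval -0.05 to 1.03) and 0.06 (-0.37 to 0.48), which overlap widely. None of the 3 genes passed the test. mRpS7, which binds the ribosomal RNA in the head of the subunit, had 142, 115 and 150 TPM in DfosDN and 105, 89.9 and 107 TPM in WT (adjusted p = 0.19).

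Of the genes fixed for the small subunit whatever their values, mRpS2 had 42.1, 36.8 and 46.8 TPM in DfosDN and 34.2, 30.7 and 31.1 TPM in WT. The groups did not overlap, with a log2 fold change of 0.37 and an interval that just reached below 0 (-0.01 to 0.76). mRpS29, the counterpart of the GTP-binding protein DAP3 of mammals, had 37.3, 45.3 and 20.4 TPM in DfosDN against 40.1, 24.7 and 30.6 TPM in WT. mRpS30, a protein assigned to the large subunit in mammalian structures, had 21.3, 18.02 and 18.02 TPM in DfosDN against 18.8, 22.02 and 14.98 TPM in WT. For both the groups overlapped and the log2 fold change was near 0, at 0.06 and 0.05, with intervals of -0.60 to 0.73 and -0.43 to 0.53. mRpS35, among the 5 lowest, had 17.2, 21.4 and 18.4 TPM in DfosDN and 14.5, 8.02 and 15.3 TPM in WT (log2 fold change 0.60, adjusted p = 0.29).

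In the large subunit no gene passed the test. mRpL52, found in mitochondrial ribosomes alone, came closest with 36.2, 33.5 and 30.5 TPM in DfosDN and 21.7, 19.8 and 20.1 TPM in WT (log2 fold change 0.67 ± 0.18, SE, adjusted p = 0.080). mRpL55, the counterpart of bacterial L31, had 224, 201 and 214 TPM in DfosDN and 161, 130 and 159 TPM in WT (log2 fold change 0.51, adjusted p = 0.089). mRpL39, also without a bacterial counterpart, had 48.7, 47.7 and 58.8 TPM in DfosDN and 31.7, 35.9 and 33.0 TPM in WT (log2 fold change 0.61, adjusted p = 0.093). In all of them the groups were separate. mRpL13 had 48.3, 37.4 and 35.1 TPM in DfosDN and 27.7, 18.7 and 30.9 TPM in WT (log2 fold change 0.64, adjusted p = 0.19). The last 300 exonic bases of mRpL13, from which a 3′ end library draws its reads, overlap no other gene on either strand. It shares 35.2% of its exonic bases with CG10602 on the same strand, a gene that fell by 2.44 on the log2 scale (adjusted p = 0.0081) to 565, 824 and 641 reads in DfosDN, against 2272, 4350 and 5890 reads in WT.

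The stalk of the large subunit, formed by mRpL12 on mRpL10 beside mRpL11, recruits the GTPases that drive translation. mRpL12 had 58.3, 71.9 and 69.7 TPM in DfosDN and 54.9, 39.0 and 57.2 TPM in WT, with the lowest DfosDN sample just above the highest WT sample (log2 fold change 0.41, 95% interval -0.02 to 0.84). mRpL11 overlapped, with 65.9, 53.0 and 61.5 TPM in DfosDN and 73.7, 38.7 and 52.5 TPM in WT (log2 fold change 0.17). mRpL10, given above, had a log2 fold change of -0.27 with an interval of -1.01 to 0.47. None of the stalk genes passed the test, and leaving out 1 library turned the sign for mRpL10 (-0.60 to 0.0090) and for mRpL11 (-0.037 to 0.40).

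Further proteins of the large subunit without a bacterial counterpart, fixed whatever their values, had fitted differences above 0. mRpL44, which resembles ribonuclease III, had 70.7, 80.4 and 56.8 TPM in DfosDN and 58.3, 55.5 and 59.0 TPM in WT. mRpL45, which lies at the membrane-facing exit in mammals, had 37.5, 31.4 and 36.9 TPM in DfosDN and 21.7, 30.4 and 25.9 TPM in WT. mRpL37 had 18.1, 23.4 and 19.9 TPM in DfosDN and 20.03, 13.3 and 16.1 TPM in WT. The fitted differences on the log2 scale were 0.25, 0.43 and 0.31 for these genes (adjusted p = 0.51, 0.29 and 0.54 by limma), and mRpL45 alone of them had groups that did not overlap.

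By symbol, 36 of 46 mRpL genes and 21 of 26 mRpS genes had a log2 fold change above 0. The medians were 0.22 and 0.31. These groups follow the symbols alone, so mRpS30, assigned to the large subunit in mammalian structures, counts among the mRpS genes. Every DfosDN sample was above every WT sample in 10 of the 46 and in 11 of the 26. Summed, mRpS genes had 1751, 1616 and 1676 TPM in DfosDN and 1303, 1287 and 1340 TPM in WT, a ratio of means of 1.28. The lowest DfosDN sum lay above the highest WT sum. mRpL genes had 3167, 2795 and 2956 TPM in DfosDN and 2682, 2385 and 2610 TPM in WT, a ratio of means of 1.16, with DfosDN replicate 2 close above WT replicate 1. The difference between mRpL and mRpS genes was not tested. The 45 genes of bacterial type, by their number, had a median log2 fold change of 0.19, with 34 above 0. The 27 genes with other numbers had a median of 0.26, with 23 above 0. This grouping rests on the numbers alone, so a protein with another number can still have a bacterial counterpart.

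**Figure D3:**
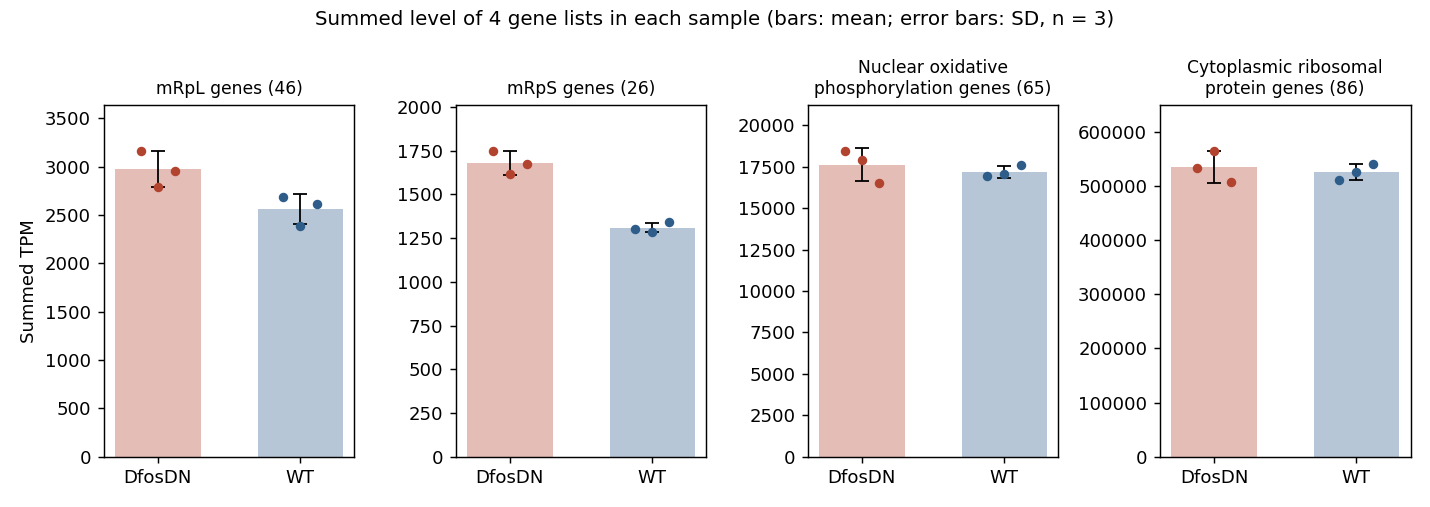
Summed TPM of the 46 mRpL and 26 mRpS genes tested, and of the 65 nuclear genes of oxidative phosphorylation and 86 cytoplasmic ribosomal protein genes for comparison. Points are samples, bars the mean and error bars the SD (n = 3), with DfosDN left and WT right and a separate linear axis from 0 for each list. The DfosDN and WT points are separate for the mRpL and for the mRpS genes and overlap for the other lists.

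Sample by sample, the members were not shifted by the same amount. The median deviation of the 72 genes from their mean over the 6 samples was 0.24, 0.05 and 0.08 on the log2 scale in DfosDN replicates 1, 2 and 3, and -0.05, -0.19 and -0.10 in WT replicates 1, 2 and 3. Over all genes tested the same medians lay between -0.01 and 0.02. DfosDN replicate 1 held the highest value of 26 members and the lowest of none, and WT replicate 2 held the lowest value of 27 members and the highest of 4. Without DfosDN replicate 1 the median log2 fold change of the members was 0.17, and without WT replicate 2 it was 0.22. The members took 0.315%, 0.265% and 0.283% of the reads in DfosDN and 0.256%, 0.219% and 0.231% in WT.

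Genes that act with the mitochondrial ribosome gave a mixed picture. Of mitochondrial ribosomal proteins under other symbols, 2 were chosen by symbol. Each had a log2 fold change above 0 without passing the test. These were tko, the counterpart of bacterial S12, with 26.6, 20.1 and 20.1 TPM in DfosDN and 18.8, 12.3 and 16.5 TPM in WT (log2 fold change 0.47), and bonsai, the counterpart of S15, with 36.1, 32.7 and 38.7 TPM in DfosDN and 34.7, 22.3 and 20.9 TPM in WT (0.48). Of the 12 mitochondrial aminoacyl-tRNA synthetases tested, which charge tRNAs for this ribosome, 4 had a log2 fold change above 0 and the median was -0.23. Of 8 mitochondrial translation factors, 5 were above 0 with a median of 0.18, and of 10 genes for the maintenance and expression of mitochondrial DNA, 6 were above 0 with a median of 0.04. No gene of these lists passed the test in either direction, and at an unadjusted p under 0.05 they held 1 translation factor higher (mIF3) and 1 synthetase lower (IleRS-m).

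The larger lists stayed closer to 0. The 65 nuclear genes of oxidative phosphorylation that were tested, whose products join the proteins made by the mitochondrial ribosome, had a median log2 fold change of 0.05, with 41 above 0, none past the test, and 7 higher and 2 lower at an unadjusted p under 0.05. The 86 cytoplasmic ribosomal protein genes, which build the ribosome of the cytoplasm, had a median of 0.04, with 54 above 0, none past the test, and 1 higher and 1 lower at an unadjusted p under 0.05. Their summed level was 533384, 565732 and 507602 TPM in DfosDN and 510897, 526564 and 541552 TPM in WT, so the sums of the groups overlapped. All 37 genes encoded in mitochondrial DNA were listed at 0 in every sample, so the mRNAs that the mitochondrial ribosome reads were not measured here.

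**Figure D4:**
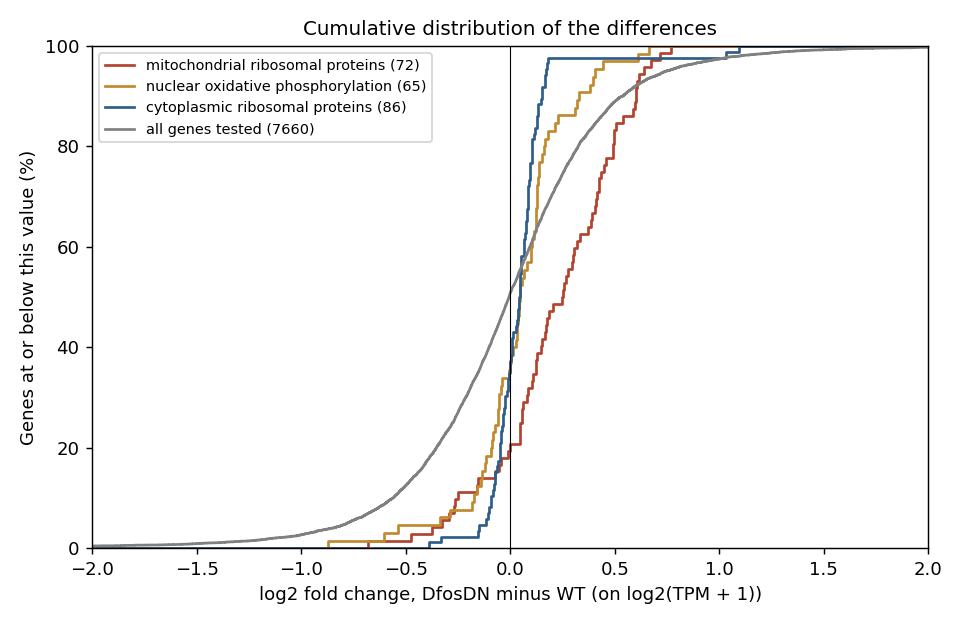
Cumulative share of genes, in percent, against log2 fold change (DfosDN minus WT on log2(TPM + 1)) for the 72 mitochondrial ribosomal protein genes (red), 65 nuclear genes of oxidative phosphorylation (ochre), 86 cytoplasmic ribosomal protein genes (blue) and all 7660 genes tested (grey). The red line crosses 50% at 0.25, to the right of the other lines, which cross near 0, at 0.05, 0.04 and -0.01.

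Overlaps with other genes touched further members. Of the 73 genes, 42 share some exonic bases with a gene on the opposite strand and 3 with a gene on the same strand. The last 300 exonic bases are covered in full for mRpS9 (by ArgRS-m), in 76.0% for mRpS21 (by CG8870) and in 73.3% for mRpL17 (by CG34263). Those partners had at most 31 reads in any sample. The members had 640 to 816 reads (mRpS9), 32 to 129 reads (mRpS21) and 151 to 429 reads (mRpL17) per sample. mRpS9 itself had a log2 fold change of -0.07 with overlapping groups. In all, 15 members had more than 20% of their last 300 exonic bases covered on the opposite strand. For most of these, the reads of the partner gene are not given here. The upper end of the 95% interval lay below 1 on the log2 scale, a doubling, for 58 of the 72 genes. The lower end was under -1, a halving, for mRpS21 (-1.52), mRpL54 (-1.35), mRpS5 (-1.28) and mRpL10 (-1.01).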

How the data were processed

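RNA of 6 samples was sequenced by the authors (Illumina, 50 bp; a 3′ end kit in the paper's methods, standard Illumina protocols in the labels). Per the submitters' processing notes and the paper's methods, reads were aligned to BDGP6 with STAR 2.5.1b, counted with HTSeq 0.5.4p3 on FlyBase genes, and normalized and tested in R 3.4.4 with edgeR's TMM, voom and limma. The deposited values are a score on the TPM scale, made by the authors in a step that is not given in the sources used here; values of 1 or more lack their decimal point.

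A value is the read number divided by exon length and multiplied by a sample constant (Ensembl BDGP6.54, a later annotation than the authors'). Of 17494 genes, 5335 were 0 in all samples, 42 had no length, 25 gave no whole reads, 243 had a posterior probability below 0.9 for the place of the point, and 11849 were kept, 120 with a length taken from the values and 47 matched by symbol in place of identifier, mRpS5 among the latter kind. The place was chosen by a negative binomial model over the 6 samples, with group means tied by a t prior (3 degrees of freedom, scale 0.25 on log2). This works against differences near 10-fold. The reads of all 72 members restored were the same in a model without groups, and 50 of their 432 values needed more than the smallest power of 10. Scripts were tested on simulated data.

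Genes reaching 10 reads in 3 samples, scaled to the median library, and 15 in total (7660) were tested with limma 3.58.1 (R 4.3.3; intensity trend, two-sided) on log2(TPM + 1) after TMM (30% and 5% trimmed), with Benjamini-Hochberg adjustment and a threshold of 0.05. TPM values given in the text are those after TMM scaling. A pseudocount of 1 understates changes of low genes. Python 3.11.15, NumPy 2.4.6, SciPy 1.17.1 and pandas 2.3.3 were used. Samples were grouped by their titles. The genes named are members past the threshold, the 10 with the smallest unadjusted p, the 5 highest and 5 lowest in TPM, those not tested, and 10 others fixed by symbol; any other gene is named as such. Bacterial type means a number up to 36 (mRpL) or 21 (mRpS), plus mRpL47, mRpL55 and mRpS24. Members, lists and rules were chosen with earlier results of these data known. The alternatives were 18 listed beforehand and 1, a restoration without the prior, chosen after seeing the data. Sequences were not used here.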

Additional observations from a re-analysis of the deposited data

How the results depend on the processing

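The count of 0 members lower in DfosDN held under all 19 alternatives, and the median log2 fold change of the members stayed above 0 in all of them; without 1 library it ranged from 0.17 to 0.30. The count of members higher, 1 in the report, was 0 with the smallest power of 10 for every value and with no filter beyond 1 read in total, and 2 with at least 10 reads in every sample, without scaling factors and in the restoration without a prior tying the group means. The second gene in those was mRpS24. Leaving out 1 library gave 0 to 1. With a replicate block the count was also 2, with adjusted p of 0.0369 for mRpS33 and 0.0499 for mRpS24 by limma. Same-numbered samples did not deviate together over all genes tested (correlations of -0.03, 0.02 and 0.03). These correlations do not tell whether same-numbered samples were collected or sorted together, and the labels do not say. Over all genes tested, the calls were 78 higher and 111 lower, against 6 and 12 with the smallest power of 10, 12 and 23 with no filter, 59 and 71 with a restoration that did not use the groups, 123 and 166 without the prior, 99 and 185 with limma-voom, and 26 to 75 higher and 31 to 96 lower without 1 library.

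Of the 24 genes named by rule, the smallest power of 10 turned the sign for mRpL13 (-0.45), mRpL34 (-1.02), mRpL52 (-0.30) and mRpS2 (-1.66). Leaving out 1 library turned it for mRpL10 (-0.60 to 0.0090), mRpL11 (-0.037 to 0.40), mRpL33 (-0.020 to 0.38), mRpL34 (-0.093 to 0.24), mRpS29 (-0.17 to 0.39), mRpS30 (-0.082 to 0.19) and mRpS5 (-0.65 to 0.27). The cause was not tested. The members tested with the fewest reads were mRpL10 and mRpS5, and the widest standard errors were those of mRpS5 (0.44), mRpL54 (0.39) and mRpS21 (0.37).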
